A study of Mus musculus with 4 samples.

Results

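The hypoxia-inducible factor (HIF) pathway was described in cultured large intestinal group 2 innate lymphoid cells (ILC2s), lymphocytes without antigen receptors that secrete type 2 cytokines. The 9 genes were the rows of the deposited count table with the symbols *Hif1a*, *Epas1*, *Vhl*, *Egln1*, *Egln2*, *Egln3*, *Bnip3*, *Vegfa*, and *Ankrd37*, out of 27179 rows, and each symbol matched 1 row. All 9 had a mean of at least 1 CPM (counts scaled to a common library size) over the libraries and were among the 11184 genes tested. ILC2s were sorted as CD45.2+Lin-CD127+KLRG1+ cells from WT C57BL/6 mice, which the methods give as 6 to 8 weeks old for C57BL/6J mice in general. They were cultured for 5 days in medium with IL-33, IL-25, IL-7, and IL-2, which both groups received. The DCA group was then given 100 μM deoxycholic acid (DCA), a secondary bile acid made by gut bacteria. The control libraries, titled Ctrl, are called vehicle here, although the study's RNA-Seq methods say only that cells were cultured with or without DCA. The study's methods state 24 hours of treatment and the deposited design text states 16 hours. Each group had 2 RNA-Seq libraries. The labels do not say whether replicates came from separate mice or cultures, so p-values measure only the spread between these libraries, which may be technical. The oxygen level of the culture was not given in the sources used here.

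HIF is a transcription factor made of an oxygen-regulated α subunit and the stable β subunit ARNT. When oxygen is plentiful, prolyl hydroxylases encoded by *Egln1*, *Egln2*, and *Egln3* mark the α subunit, and the von Hippel-Lindau protein encoded by *Vhl* recruits a ubiquitin ligase that sends it for degradation. At low oxygen the α subunit persists and turns on genes of glycolysis, blood vessel growth, and mitochondrial turnover. HIF activity is therefore set largely at the protein level, which RNA counts do not measure.

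*Bnip3*, *Ankrd37*, *Egln3*, and *Vegfa* are known as hypoxia response genes, and the bases before their transcription start are shown because HIF binds DNA at a short core. Each run is the 250 bases before the start on the gene's own strand, 5′ to 3′, from RefSeq on GRCm38.p6, at chr7:138909507-138909756, chr8:45999851-46000100, chr12:54203875-54204124, and chr17:46032378-46032627, all on the minus strand. The starts are those of the RefSeq promoter table. The start of *Ankrd37* lies 564 bases inside the outermost end of its gene as given later, so that its stretch is within the gene, and for *Vegfa* the more upstream of 2 starts is shown. Capitals mark matches on either strand to ACGTG or GCGTG, the letters of the HIF core.
Bnip3: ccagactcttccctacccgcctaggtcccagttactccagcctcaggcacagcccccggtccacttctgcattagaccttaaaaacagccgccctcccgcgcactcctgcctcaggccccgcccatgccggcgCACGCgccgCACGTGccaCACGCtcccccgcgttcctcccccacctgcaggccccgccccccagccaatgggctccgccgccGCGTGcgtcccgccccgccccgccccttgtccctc
Ankrd37: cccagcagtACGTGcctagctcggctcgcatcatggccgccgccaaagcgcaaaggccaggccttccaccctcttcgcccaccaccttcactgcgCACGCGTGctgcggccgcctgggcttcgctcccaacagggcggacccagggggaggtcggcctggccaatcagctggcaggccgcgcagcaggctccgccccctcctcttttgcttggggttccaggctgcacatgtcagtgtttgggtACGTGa
Egln3: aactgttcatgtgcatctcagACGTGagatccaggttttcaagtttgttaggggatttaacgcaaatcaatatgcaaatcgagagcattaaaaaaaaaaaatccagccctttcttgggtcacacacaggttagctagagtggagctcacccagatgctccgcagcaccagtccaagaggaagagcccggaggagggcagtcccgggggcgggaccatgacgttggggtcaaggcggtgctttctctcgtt
Vegfa: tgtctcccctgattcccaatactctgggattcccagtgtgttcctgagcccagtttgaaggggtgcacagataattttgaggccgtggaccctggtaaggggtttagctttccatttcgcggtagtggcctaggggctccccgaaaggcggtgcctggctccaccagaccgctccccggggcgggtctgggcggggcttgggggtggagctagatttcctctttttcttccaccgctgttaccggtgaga
The *Bnip3* stretch held 5 matches, that of *Ankrd37* held 4, that of *Egln3* held 1, and that shown for *Vegfa* held 0, while the stretch of the other *Vegfa* start, 7214 bases further in, held 2. In *Bnip3* an ACGTG on each strand overlapped, and in *Ankrd37* a GCGTG on each strand did. At least 1 match was present in 38.6% of the 32851 stretches of this length in the table, and 3 or more in 6.58%. A match describes letters and not a bound site, and its absence says only that these letters are not in this stretch. The table held 10 stretches for 8 members, of which 8 had a match. The share of G and C bases in these 10 ran from 48% to 86%, against a median of 52.4% over all stretches. The part of base content in the number of matches was not tested. Beside those shown, the stretches of the 2 *Egln2* starts held 4 and 1 matches, that of *Egln1* held 2, and that of *Vhl* held 0. The stretch of *Hif1a* held 3, at a start 6543 bases inside its gene.

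The libraries held between 26564059 and 244165712 counts, the most in DCA replicate 2, and the other 3 held at most 35838342. Where no count was seen, up to 3 counts remain possible, or 0.115 CPM in the shallowest library and 0.0125 CPM in DCA replicate 2. Such limits, and the Poisson intervals given later, cover counting error alone, because PCR copies were not told apart by molecular identifiers. The 13 ILC2 markers examined were each detected in at least 3 libraries and summed to between 16140 and 20768 CPM, with *Thy1* at or under 4.24 CPM. Of these markers, 4 had both DCA libraries higher and 3 both lower, against 18.6% and 14.7% of all genes tested. An edgeR unadjusted p below 0.05 was reached by 3 of the 13, 1 higher and 2 lower, against 4.27% of all genes tested. None of the 3 had an adjusted p below 0.05. *Klrg1*, a marker of the sort, was at 688 and 678 CPM in vehicle and at 463 and 356 CPM in DCA libraries (edgeR unadjusted p = 0.0154). *Il1rl1*, the IL-33 receptor, was at 832 and 876 against 598 and 533 CPM (edgeR unadjusted p = 0.0229). *Il2ra*, which encodes CD25, was at 1074 and 1230 against 1613 and 1584 CPM (edgeR unadjusted p = 0.0459). The part of these marker differences in the levels of the HIF genes was not tested. The summed markers of endothelial cells, fibroblasts, epithelium, mast cells and basophils, ILC3s, macrophages and monocytes, and B and T cells were each at or under 55.1 CPM in every library. In bulk RNA, fewer cells of a type and less RNA per cell cannot be told apart.

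None of the HIF genes passed the test for a change with DCA. With the edgeR quasi-likelihood test, 0 of the 9 members reached a Benjamini-Hochberg adjusted p below 0.05, as did 0% of all genes tested. An unadjusted p below 0.05 was reached by 0 members and by 4.27% of all genes tested (2.54% higher and 1.73% lower under DCA). DESeq2 also called 0 members, and it called 247 of the 13586 genes that it tested. The members' unadjusted edgeR p ran from 0.226 to 0.983, and the adjusted p was 0.999 for each. The median log2 fold change was -0.0068 over the members and 0.0080 over all genes tested, with 4 members above 0 and 5 below, where 50.7% of all genes tested were above 0. For *Bnip3* both DCA libraries exceeded both vehicle libraries, for *Vhl* both were below them, and the libraries overlapped for the other 7. Over all genes tested, 33.3% did not overlap between treatments, 18.6% with both DCA libraries higher and 14.7% with both lower. A design of 2 libraries against 2 cannot give a two-sided exact permutation p below 0.333.

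**Figure D1:**
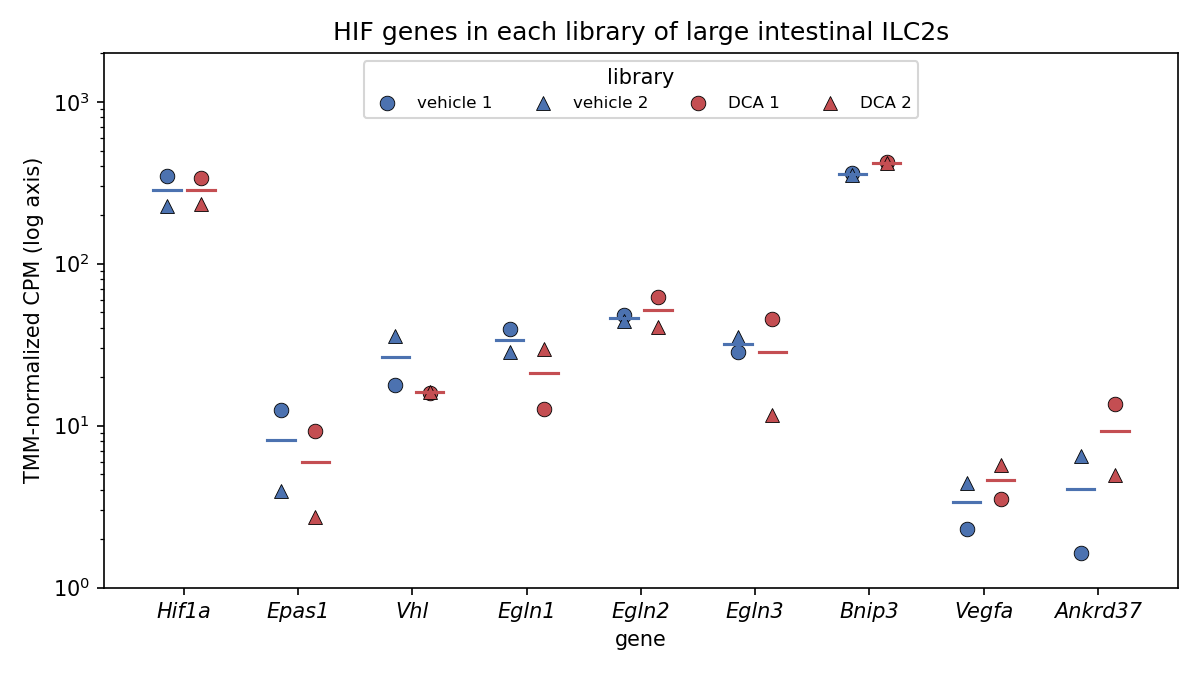
TMM-normalized CPM on a log axis for the 9 HIF genes in the 2 vehicle libraries (blue) and the 2 DCA libraries (red), with circles for replicate 1, triangles for replicate 2, and a bar at each group mean. *Bnip3* and *Hif1a* lay highest, and the replicates of *Epas1* and *Ankrd37*, and of *Egln3* under DCA, lay far apart.

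Of the α subunits, *Hif1a* (Entrez gene 15251, chromosome 12, 73901324 to 73947554 on GRCm38) was far more abundant than *Epas1*. *Hif1a* was at 346 CPM in vehicle replicate 1, 226 in vehicle replicate 2, 337 in DCA replicate 1, and 232 in DCA replicate 2, the order kept for the other genes. Each DCA library lay within the range of the vehicle libraries, and each treatment held a high and a low library. The group means were 286 ± 85.2 CPM (SD, n = 2) under vehicle and 285 ± 74.1 CPM (SD, n = 2) under DCA. On the log2 scale the fold change was -0.0068, with a standard error of 0.41 taken from the libraries' log2(CPM + 1) and an edgeR unadjusted p of 0.983. The 95% interval of this change from limma was -0.67 to 0.68, which holds changes of that size in either direction. The gap between the vehicle replicates exceeded counting error, since their 95% exact Poisson intervals were 340 to 352 and 220 to 232 CPM. Annotated exons of *Hif1a* share 330 bases with the antisense gene *Gm15283* and 148 with *Gm49321*, a coding gene on the same strand, and the strand setting of the counting is not given in the sources used here.

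*Epas1* (Entrez gene 13819, chromosome 17, 86753864 to 86833410) encodes HIF-2α, the subunit best known from endothelial cells. Its levels were 12.5 and 3.93 CPM under vehicle and 9.21 and 2.71 CPM under DCA, from 456, 103, 298, and 653 counts. Replicate 1 was higher than replicate 2 in both treatments, by 3.17-fold under vehicle and by 3.40-fold under DCA, so that the treatments overlapped. *Hif1a* was likewise higher in replicate 1 of each treatment, although nothing in the labels pairs the libraries beyond the number. The log2 fold change of *Epas1* was -0.46 (standard error 1.03, edgeR unadjusted p = 0.690). Omitting vehicle replicate 1 gave 0.57 and omitting DCA replicate 2 gave 0.17, whereas omitting vehicle replicate 2 gave -1.07 and omitting DCA replicate 1 gave -1.59, so its direction rests on the libraries included. The 6 endothelial markers summed to 11.5 and 3.78 CPM under vehicle and to 3.71 and 6.62 CPM under DCA. *Pecam1* alone was at 11.4 and 3.78 CPM under vehicle and at 3.71 and 6.25 CPM under DCA. *Tek*, *Vwf*, and *Emcn* were at 0 in every library. Macrophage and monocyte markers, 7 in all, summed to 24.6 and 23.97 CPM under vehicle and to 7.30 and 10.2 CPM under DCA, mostly from *Cd68* (lower under DCA, edgeR unadjusted p = 0.0381, adjusted p = 0.999), with *Csf1r*, *Cd14*, and *C1qa* at 0 in every library. The part of such cells in the *Epas1* level was not tested.

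Levels of different genes were compared per kilobase of annotated exon, because longer transcripts collect more reads. On this scale *Hif1a* was at 58.7 and 38.3 CPM per kb under vehicle and at 57.2 and 39.4 CPM per kb under DCA, whereas *Epas1* lay between 0.485 and 2.23 CPM per kb. *Hif1a* made up 96.3% and 98.2% of the α subunit level per kb in the vehicle libraries and 97.2% and 98.8% in the DCA libraries. The mean share was 97.3% ± 1.31 (SD, n = 2) under vehicle and 98.0% ± 1.12 (SD, n = 2) under DCA, a difference within the spread between libraries (exact permutation test, two-sided, p = 0.667).

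All 3 prolyl hydroxylases were expressed. *Egln1* (Entrez gene 112405, chromosome 8, 124908587 to 124949254) encodes PHD2, the main oxygen sensor of the family. It was at 39.4 and 28.6 CPM under vehicle and at 12.7 and 29.8 CPM under DCA. DCA replicate 1 was the lowest, and DCA replicate 2 lay within the range of the vehicle libraries. The log2 fold change was -0.68 (standard error 0.63, edgeR unadjusted p = 0.261), which became -0.20 when DCA replicate 1 was omitted and -1.42 when DCA replicate 2 was. *Egln2* (Entrez gene 112406, chromosome 7, 27158658 to 27166802) encodes PHD1. It was at 47.9 and 44.4 CPM under vehicle and at 62.3 and 40.8 CPM under DCA, so that the DCA libraries lay on either side of the vehicle libraries. *Egln3* (Entrez gene 112407, chromosome 12, 54178981 to 54203874) encodes PHD3, which is itself induced by HIF in many cell types. Its levels were 28.6 and 35.3 CPM under vehicle and 45.5 and 11.6 CPM under DCA. Here too the DCA libraries, 3.91-fold apart, enclosed both vehicle libraries. The log2 fold change was -0.16 (standard error 0.95, edgeR unadjusted p = 0.816), and -0.43 on the log2(CPM + 1) scale of that standard error. The edgeR value became 0.51 when DCA replicate 2 was omitted and -1.47 when DCA replicate 1 was.

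The summed level of the 3 prolyl hydroxylases was 38.8 and 37.1 CPM per kb under vehicle and 42.9 and 27.2 CPM per kb under DCA. *Egln2* had the highest level per kb of the 3 in every library. Its share was 44.1% and 42.8% under vehicle and 51.9% and 53.5% under DCA. Both DCA libraries were thus above both vehicle libraries, and the means were 43.4% ± 0.958 (SD, n = 2) and 52.7% ± 1.13 (SD, n = 2), 9.23 percentage points apart (exact permutation test, two-sided, p = 0.333, the smallest possible). The CPM of *Egln2* itself overlapped between treatments (log2 fold change 0.16, standard error 0.30, edgeR unadjusted p = 0.677). The remainder was divided differently in the DCA libraries, where *Egln1* held 8.25% in DCA replicate 1 and 30.5% in DCA replicate 2, and *Egln3* held 39.9% and 16.1%. In the vehicle libraries *Egln1* held 28.3% and 21.5%, and *Egln3* 27.6% and 35.8%.

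**Figure D2:**
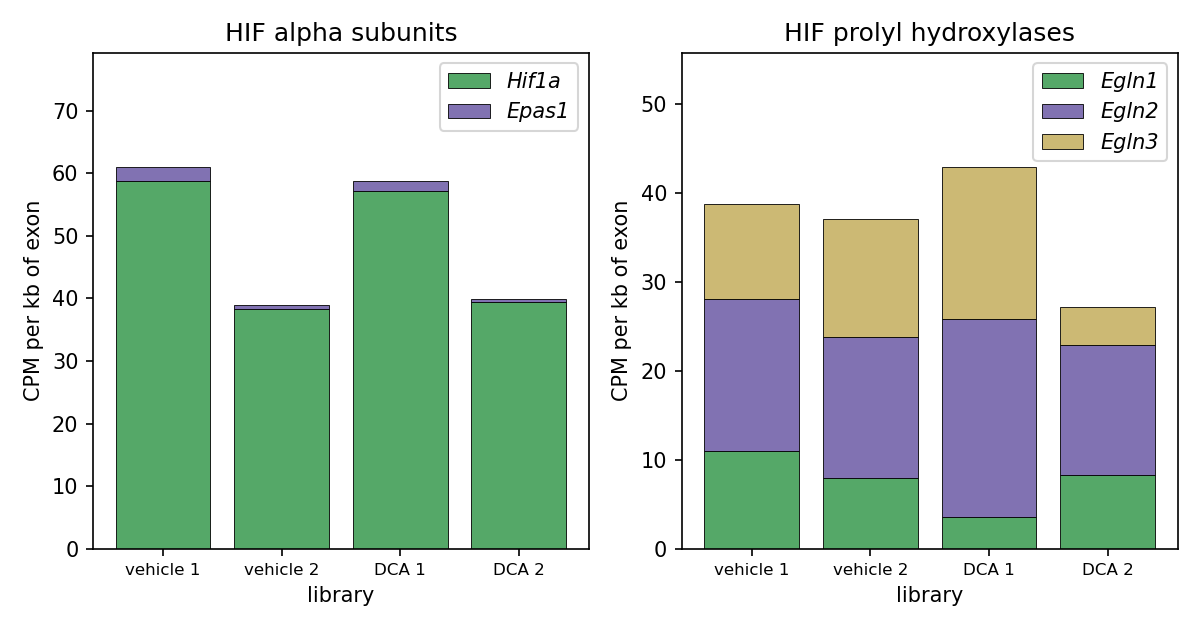
Stacked bars of CPM per kb of exon in each of the 4 libraries, for the HIF α subunits (left) and the prolyl hydroxylases (right). *Hif1a* made up at least 96.3% of the α subunit bar in each library, and *Egln2* was the largest segment of the prolyl hydroxylase bar in each, from 42.8% to 53.5%.

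*Vhl* (Entrez gene 22346, chromosome 6, 113623994 to 113631634) encodes the subunit that recognizes hydroxylated α subunits. It was at 17.7 and 35.6 CPM under vehicle and at 15.9 and 16.2 CPM under DCA, from 649, 933, 515, and 3899 counts. Both DCA libraries were lower than both vehicle libraries, but vehicle replicate 1 lay close to the DCA libraries and vehicle replicate 2 stood apart. The 95% exact Poisson interval of vehicle replicate 1, 16.4 to 19.2 CPM, overlapped those of both DCA libraries, 14.6 to 17.4 and 15.7 to 16.7 CPM. The log2 fold change was -0.73 (standard error 0.48, edgeR unadjusted p = 0.226), the most negative among the members. Without vehicle replicate 2 it was -0.14, and without vehicle replicate 1 it was -1.18 (edgeR unadjusted p = 0.0429, adjusted p = 0.354, with the lone vehicle library assumed to vary like the DCA libraries).

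*Bnip3* (Entrez gene 12176, chromosome 7, 138890836 to 138909506), which encodes a mitochondrial receptor for mitophagy, had the highest level per kb of the 9 genes and the closest replicates. It was at 363 and 354 CPM under vehicle and at 423 and 418 CPM under DCA. The means were 359 ± 5.89 CPM (SD, n = 2) and 421 ± 3.35 CPM (SD, n = 2), so DCA was 1.17-fold higher, and the gap between the treatments was wider than the spread within either. The log2 fold change was 0.23, with a standard error of 0.019 from these libraries alone. It lay between 0.21 and 0.24 with each library left out in turn. Nevertheless *Bnip3* did not pass the test (edgeR unadjusted p = 0.292, adjusted p = 0.999), which moderates each gene's spread towards that of other genes. The pooled SD of *Bnip3* on the log2 scale was 0.019, and 0.232% of the genes tested had a smaller one, against a median of 0.43 over all genes tested. The corresponding 95% interval from limma was -0.25 to 0.71, and the exact permutation p was 0.333 (two-sided, the smallest possible). Its annotated exons share 504 bases with the antisense gene *Gm45507*.

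*Vegfa* (Entrez gene 22339, chromosome 17, 46016993 to 46032377) encodes the main growth factor of blood vessels and was scarce in these cells. It was at 2.30 and 4.43 CPM under vehicle and at 3.53 and 5.68 CPM under DCA, from 84, 116, 114, and 1367 counts. The treatments overlapped, as DCA replicate 1 lay between the vehicle libraries. Its log2 fold change was 0.45 (standard error 0.46, edgeR unadjusted p = 0.735), and it was 1.00 without vehicle replicate 2 and 0.029 without vehicle replicate 1. *Vegfa* had the lowest level per kb of the 9 genes, with a mean of 0.929 CPM per kb against 1.27 for *Epas1*, and the libraries of these neighbours overlapped.

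*Ankrd37* (Entrez gene 654824, chromosome 8, 45996908 to 46000414), an ankyrin repeat gene known as a direct HIF target, had the largest log2 fold change of the members and one of the widest spreads. It was at 1.64 and 6.53 CPM under vehicle and at 13.6 and 4.96 CPM under DCA, from 60, 171, 439, and 1194 counts. DCA replicate 1 was the highest library, and DCA replicate 2 lay between the vehicle libraries, which were 3.98-fold apart. The log2 fold change was 1.18 (standard error 0.99, edgeR unadjusted p = 0.341). A log2 fold change over 1 in size was found for 1 member, *Ankrd37*, and for 18.2% of all genes tested. The value for *Ankrd37* became 0.26 when DCA replicate 1 was omitted and 0.47 when vehicle replicate 1 was, and it became 1.73 and 2.50 when replicate 2 of DCA or of vehicle was. The exons of *Ankrd37* share 349 bases with those of *Lrp2bp* and 57 with those of *Ufsp2*, both on the opposite strand. Its counts are therefore uncertain over those bases. *Lrp2bp* had 55 and 28 counts in the vehicle libraries but 0 in either DCA library, and *Ufsp2* had between 2112 and 23025 counts.

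**Figure D3:**
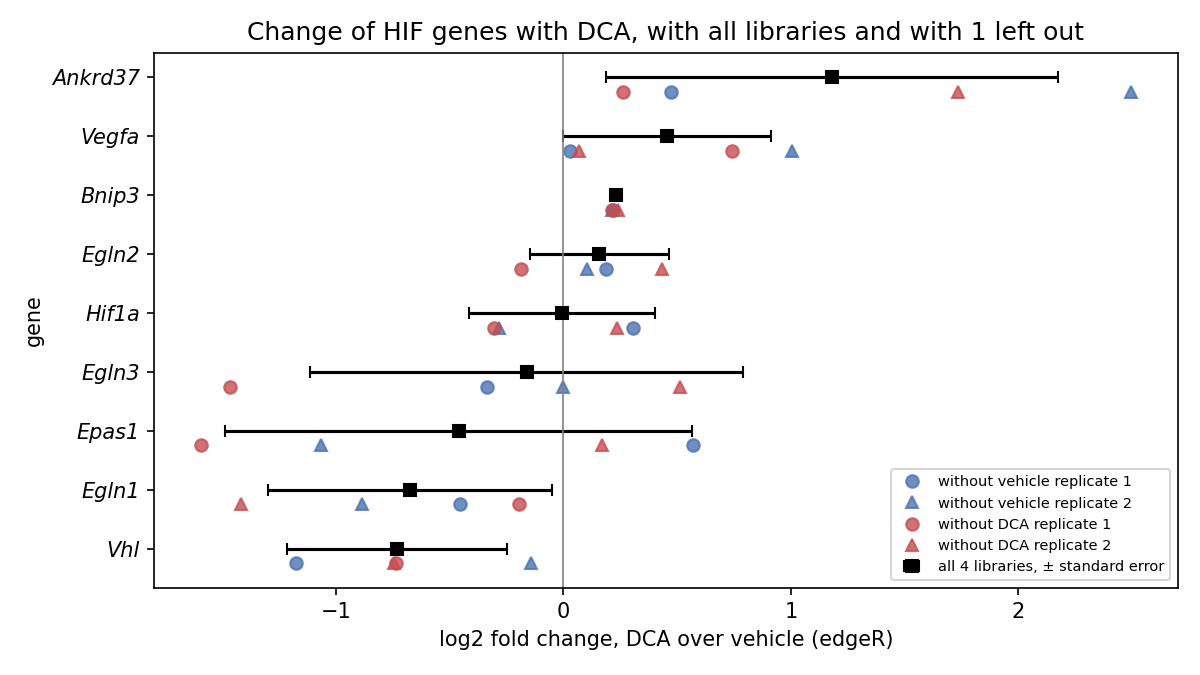
Log2 fold change of DCA over vehicle for each HIF gene, with all 4 libraries (black squares, bars of 1 standard error of log2(CPM + 1) between libraries) and with 1 library left out (colored symbols). *Bnip3* stayed between 0.21 and 0.24, whereas *Ankrd37* ran from 0.26 to 2.50 and *Epas1* from -1.59 to 0.57.

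By mean level per kb the order was *Bnip3* at 172, *Hif1a* at 48.4, *Egln2* at 17.4, *Egln3* at 11.4, *Egln1* at 7.69, *Vhl* at 7.13, *Ankrd37* at 4.34, *Epas1* at 1.27, and *Vegfa* at 0.929 CPM per kb. *Bnip3* lay above *Hif1a*, and *Hif1a* above *Egln2*, without overlap of their libraries. Each of the neighbours from *Egln2* down to *Vegfa* overlapped in range with the next. Replicates differed beyond counting error in most cases, since the 95% exact Poisson intervals of the 2 libraries of a treatment did not overlap in 14 of 18 cases. These were all cases other than both treatments of *Bnip3*, *Egln2* under vehicle, and *Vhl* under DCA. The median of the pooled log2 SD was 0.48 over the members and 0.43 over all genes tested.

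The tested genes most like *Hif1a* over the 4 libraries, by the root mean square difference of log2(CPM + 1), were *Cdc42se2* (0.11), *Sash3* (0.12), and *Glipr2* (0.14). Those most like *Vegfa* were *Gm5620* (0.13), *Tnfrsf12a* (0.18), and *H3f3c* (0.20). This measure counts a like level as well as a like pattern over the libraries.

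In the wider pathway, 0 genes of the 5 lists examined reached an edgeR adjusted p below 0.05. Among 16 partners and other regulators of HIF, all of them tested, 6 had both DCA libraries above both vehicle libraries and 0 had both below, against 18.6% and 14.7% of all genes tested, with a median log2 fold change of 0.27. The most abundant of them, *Hsp90ab1*, a chaperone that holds HIF-1α, was at 2736 and 2832 CPM under vehicle and at 3391 and 3491 CPM under DCA, a log2 fold change of 0.31 (edgeR unadjusted p = 0.122). *Cul2*, the scaffold of the ligase that contains VHL, was at 65.5 and 47.0 CPM under vehicle and at 101 and 81.4 CPM under DCA (log2 fold change 0.70, edgeR unadjusted p = 0.0676). *Arnt*, the β subunit, was at 13.1 and 21.3 CPM under vehicle and at 23.5 and 26.6 CPM under DCA, a log2 fold change of 0.54 (edgeR unadjusted p = 0.326). *Hif3a*, a further α subunit, had 198 counts in vehicle replicate 2 and 0, 0, and 4 in the other libraries. *Cul2*, *Arnt*, and *Hif3a* were chosen after their values were seen.

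Among 28 other hypoxia response genes, 24 were tested, with a median log2 fold change of 0.046. Of these 24, 1 had both DCA libraries higher and 3 both lower, against 18.6% and 14.7% of all genes tested. *Hmox1* encodes the heme-degrading enzyme heme oxygenase 1 and is also a target of NRF2. Of the pathway lists, only this 1 gene had an edgeR unadjusted p below 0.05, which 4.27% of all genes tested reached. It was at 68.2 and 88.1 CPM under vehicle and at 216 and 175 CPM under DCA, so that both DCA libraries were well above both vehicle libraries. The log2 fold change of *Hmox1* was 1.32 (standard error 0.24, edgeR unadjusted p = 0.00251, adjusted p = 0.999). The adjusted p of *Hmox1* was 0.00233 with DESeq2 and 0.0145 with edgeR without a filter on low values, and 0.197 or more under the other alternatives, while its log2 fold change stayed between 1.12 and 1.52 in every fit. *Ero1a*, the most abundant gene of this list and an oxidase of the endoplasmic reticulum, was at 1133 and 1190 CPM under vehicle and at 958 and 984 CPM under DCA (log2 fold change -0.26, edgeR unadjusted p = 0.213). The other genes of this list with both DCA libraries lower were *Errfi1* (log2 fold change -1.23, edgeR unadjusted p = 0.0788) and *Bhlhe40* (-0.39, edgeR unadjusted p = 0.299). Both were chosen after their values were seen. *Epo* was at 0 counts in every library.

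All 20 glycolysis genes that respond to hypoxia were tested, with a median log2 fold change of -0.022. Both DCA libraries were higher for 1 of them and lower for 5, against 18.6% and 14.7% of all genes tested. The higher 1 was *Hk2*, with a log2 fold change of 0.73 (edgeR unadjusted p = 0.0898). The 5 lower were *Slc16a3* (-1.05), *Slc2a1* (-0.85), *Pfkl* (-0.72), *Pgam1* (-0.49), and *Tpi1* (-0.49), with edgeR unadjusted p from 0.0507 to 0.123. These genes were chosen after their values were seen. *Ldha*, which encodes lactate dehydrogenase A, was the most abundant glycolysis gene of the list. It was at 4962 and 4620 CPM under vehicle and at 4827 and 4383 CPM under DCA, a log2 fold change of -0.057 (edgeR unadjusted p = 0.750). Of 9 other VEGF ligands and receptors, 3 were tested and 3 were at 0 counts in every library, among them the receptors *Flt1* and *Kdr*. *Vegfc*, the lymphatic vessel growth factor, was at 54.4 and 68.2 CPM under vehicle and at 79.4 and 75.0 CPM under DCA (log2 fold change 0.33, edgeR unadjusted p = 0.298), and so had more reads than *Vegfa* in each library. Of 7 other genes of mitophagy, 6 were tested, with a median log2 fold change of 0.067. Both DCA libraries were higher for 1 of these and lower for 0, against 18.6% and 14.7% of all genes tested. *Fkbp8*, the most abundant, was at 451 and 417 CPM under vehicle and at 553 and 472 CPM under DCA (log2 fold change 0.24, edgeR unadjusted p = 0.297). *Bnip3l*, the paralog of *Bnip3*, was at 90.5 and 86.3 CPM under vehicle and at 93.1 and 87.5 CPM under DCA, a log2 fold change of 0.030. This gene was chosen after its values were seen, and it is also among the 28 other hypoxia response genes.

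**Figure D4:**
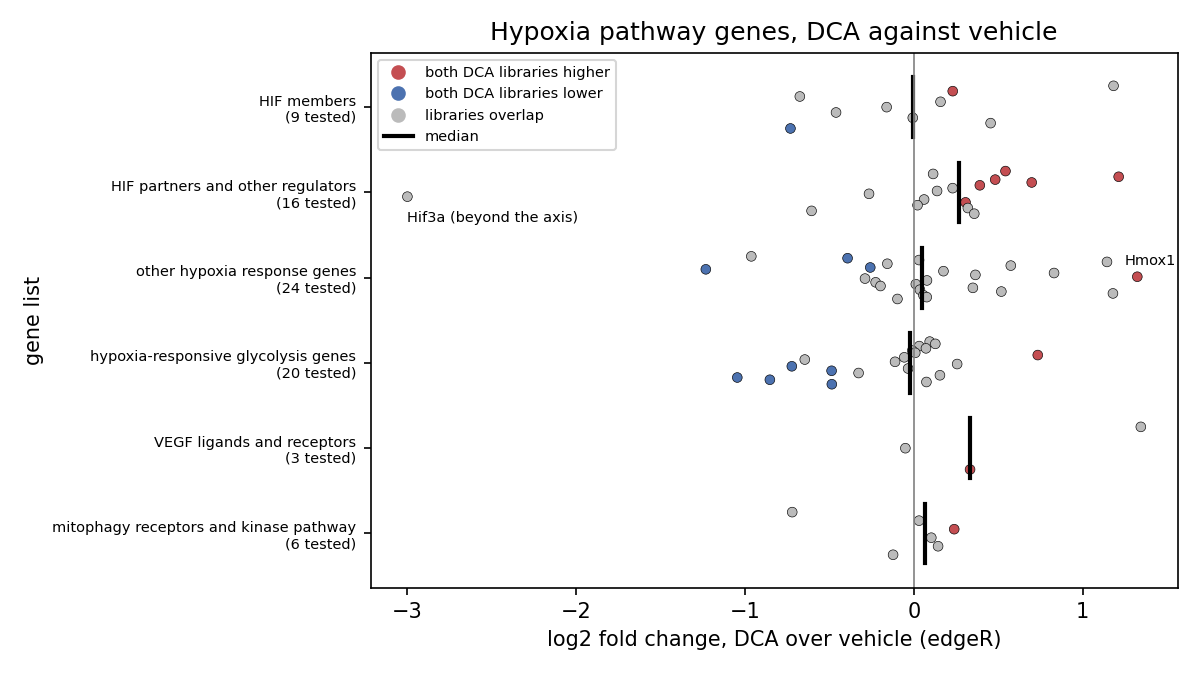
Log2 fold change of DCA over vehicle for the tested genes of 6 hypoxia pathway lists, 1 point per gene in each list, with *Bnip3l* in 2 lists. Points are red where both DCA libraries were higher, blue where both were lower, and gray where libraries overlapped, with a black bar at each list's median. *Hif3a* lies beyond the axis and is drawn at its edge, and the medians run from -0.022 to 0.33.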

How the data were processed

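RNA-Seq of 2 vehicle and 2 DCA libraries of sorted, cultured ILC2s was used. Per the methods and the submitters' processing notes, the authors amplified full-length cDNA by SMART-Seq and read paired ends of 150 bases. Cutadapt 1.9 trimmed the reads, and hisat2 2.2.1 placed them on mm10. The counting tool, its annotation and its strand setting are not given in the sources used here. The deposited values are whole-number counts per Entrez gene, under a table name that mentions FPKM. Genes with 2 counts outnumbered those with 1 (484 against 253 in vehicle replicate 1), as when both mates are counted, which would widen the counting intervals and limits. The 1275 rows with no symbol, 0.137% to 0.173% of the counts, were kept under their identifiers.

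Libraries were assigned to groups by their titles. Counts were tested with edgeR 4.0.16 in R 4.3.3 (TMM, quasi-likelihood, two-sided, Benjamini-Hochberg over the 11184 genes averaging 1 CPM or more). TMM-normalized CPM gave the means and SDs, and standard errors are of log2(CPM + 1) between libraries. The change on that scale can differ from the edgeR log2 fold change beside which a standard error is given. DESeq2 1.42.0, which the methods name, limma 3.58.1 (its intervals are quoted), other scalings, other filters, the replicate number as a block, and leaving out each library were alternatives. Gene positions are from RefSeq on GRCm38.p6, exon lengths and overlaps from GENCODE M21 on the same assembly. The edgeR test was tested on simulated counts. Members, lists, and tests were chosen with earlier results of these data known. The genes named are all members and, from the 5 pathway lists, genes whose unadjusted p was below 0.05 with no overlap between treatments, as none passed an adjusted p of 0.05, and the most abundant gene of each list. The 3 genes most like *Hif1a* and *Vegfa* are named too. Cell type markers, overlapping genes, *Epo*, *Flt1*, *Kdr*, and those said to be chosen later fall outside this rule and were named after their values were seen.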

Additional observations from a re-analysis of the deposited data

How the results depend on the processing

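Each treatment had 2 libraries, and a fit without a library assumes that the lone library varies like the others. The 0 genes called at an adjusted p below 0.05 became 36 with no filter on low values (24 higher), 247 with DESeq2 (164 higher), and 0 to 28 with a library left out, 28 without vehicle replicate 1. In the edgeR quasi-likelihood test 478 genes had an unadjusted p below 0.05. The cause of these moves was not tested. Without a filter 17706 genes were tested. Of the members tested, none was called in any of the 12 alternatives, and the lowest adjusted p of a member was 0.354. *Vegfa* was not tested when 5 CPM on average was required.

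The correlation across genes between deviations of libraries with the same number was 0.020. This value cannot tell whether such libraries shared a mouse, a culture, or a batch, which the labels do not say. With the replicate block 0 genes and 0 members were called, and *Hif1a*, at -0.0068, was at 0.0015, as it was with limma. Leaving out 1 library at a time moved the log2 fold change from -0.31 to 0.31 for *Hif1a*, from -1.59 to 0.57 for *Epas1*, from -0.19 to 0.43 for *Egln2*, and from -1.47 to 0.51 for *Egln3*, while the sign held for the other 5 members in every alternative that tested them. The member median ranged from -0.20 without DCA replicate 1 to 0.24 without DCA replicate 2.

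With the longest transcript as gene length, the mean share of *Egln2* was 50.5% under vehicle and 59.6% under DCA. Undivided by length it was 41.2% and 50.6%, and that of *Egln1* under vehicle was 30.2%.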
